A study of Homo sapiens with 2 samples.

Results

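The genes described here are the ATP-binding cassette (ABC) transporter family, taken as every gene symbol in the count table made of ABC, a subfamily letter from A to G and a number. This rule found 45 of the 19220 genes in the table: 12 of subfamily A, 9 of B, 11 of C, 4 of D, 1 of E, 3 of F and 5 of G. ABC proteins bind and hydrolyse ATP, and most use it to move lipids, peptides, metabolites or drugs across a membrane. Some sit in the plasma membrane and pump drugs, doxorubicin included, out of the cell. Others sit in mitochondria, peroxisomes or lysosomes, and subfamilies E and F have no membrane domain and work with ribosomes. The family genes TAP1, TAP2 and CFTR carry other symbols and are given only as related genes.

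The RNA came from H9, a long-established line of human T lymphoma cells that was derived as a clone of another line and is labelled wild type. The libraries were 1 from cells kept for 6 h with 0.05 µM doxorubicin, an anthracycline that poisons topoisomerase II, and 1 from untreated cells. The untreated library is labelled as 0 h of doxorubicin, and there is no untreated library at 6 h. Drug and time in culture therefore cannot be told apart in any ratio below. Poly(A) RNA was sequenced, and the values are read counts per gene, 50174434 in the doxorubicin library and 33730703 in the untreated library. The stated question was which genes and pathways respond to the drug. There are no replicates, so there is no test and no p-value, and every interval is a 95% counting interval that leaves out the variation between cultures.

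T cell markers were present, with CD3D at 7431 counts in the doxorubicin library and 7122 in the untreated library, and CD3E at 8864 with doxorubicin and 7149 without. CD2 had 2 counts with doxorubicin and 0 without, and CD7 had 8 in each library. After scaling, the log2 ratio of doxorubicin over untreated was -0.58 (-0.63 to -0.53) for CD3D and -0.33 (-0.38 to -0.29) for CD3E. CD3G, of the same receptor complex, went the other way, with 3134 counts with doxorubicin and 931 without, 2.16-fold higher (2.01 to 2.33). The kinase gene LCK had 10636 with doxorubicin and 4880 without, at 0.48 (0.43 to 0.53). The 8 T cell markers in the table thus differed in direction, and summed to 827 CPM with doxorubicin and 816 without (CPM, counts scaled to a common depth by TMM library sizes). The B cell markers CD79A and CD79B were also present, at 6628 and 1065 counts with doxorubicin and 6007 and 755 without, while PAX5 was at 0 in both. The 5 B cell markers summed to 150.2 CPM with doxorubicin and 206 without. Of the epithelial markers, EPCAM had 3236 counts with doxorubicin and 2591 without, and CDH1 had 201 with it and 94 without. KRT8 had 18 with doxorubicin and 11 without, and KRT18 had 15 with it and 11 without. Of the myeloid markers, CD68 had 127 with doxorubicin and 49 without, and 4 others had 1 to 99 counts in all. The part of these markers in the results below was not tested. Of the markers of pluripotent stem cells, another line of which is also called H9, NANOG was at 0 in both libraries, SOX2 had 2 counts with doxorubicin and 0 without, and POU5F1 had 110 with doxorubicin and 105 without. In bulk RNA, fewer cells of a type and less RNA per cell cannot be told apart.

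Of the 45 family genes, 15 had 0 counts in both libraries, 9 had 1 to 99 counts in all and 21 had at least 100, the minimum for a gene to be called measured. Together the 45 genes summed to 1616 CPM in the doxorubicin library and 1310 in the untreated library. Subfamily C made up 31.1% of the family's counts with doxorubicin and 25.7% without, subfamily F 24.96% with it and 23.1% without, and ABCE1 alone 15.5% with it and 20.8% without. Subfamily G held the smallest share, 2.17% with doxorubicin and 2.52% without.

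The stretches upstream of the genes differed between expressed and silent members. The same split by counts was not made over all genes, so nothing particular to the family is read from it. Of the 45 genes, 35 matched a RefSeq promoter window on GRCh38.p14, and the 250 bases before the start nearest to the principal transcript were read in each. Of the 21 measured genes 17 had a window, and ABCC1 had none. The start used lay 6535 bases from the principal one for ABCB9, 3888 for ABCC10 and 4752 for ABCC9, so these windows may not be the promoter in use. They held 27, 16 and 15 CG dinucleotides in the same order. The number of CG dinucleotides had a median of 27 (range 13 to 54) over the 17 measured genes with a window, ABCB9 and ABCC10 included. It had a median of 7 (1 to 22) over the 7 genes with 1 to 99 counts and of 2 (1 to 27) over the 11 with 0 counts, beside 11 over all 35116 windows in the table. Those windows, also used as background for the motifs below, were not reduced to 1 per gene as the family's were. The motif GGGCGG or its reverse complement was found in 15 of the 17 measured genes, in 2 of the 7 and in 3 of the 11, against 42.6% of all windows. CCAAT or its reverse complement was in 4 of 17, 1 of 7 and 3 of 11, against 32.01% of all windows. Genes at 0 counts with many CG dinucleotides were ABCG2 with 27, ABCG4 with 19, ABCA1 with 16 and ABCB1 with 12. These are matches of letters and say nothing of binding or methylation.

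The upstream stretches of 4 drug and conjugate pumps, picked after their values were seen, are printed. ABCC4 is measured and rich in CG, while ABCC2 and ABCC11 are at or near 0 counts and poor in CG. ABCG2 is at 0 counts and rich in CG. Not all pumps followed the contrast, as ABCC6, with 1 to 99 counts, had 22 CG dinucleotides, beside 21 for ABCC5 and 16 for ABCC10, both measured. GGGCGG or its reverse complement occurred 0 times in the 250 bases of ABCC4 and 2 times in those of ABCG2. Each printed stretch is read 5′ to 3′ on the gene's strand from RefSeq, the bases that fall in an annotated exon are left out, and capitals mark CG dinucleotides. The stretches are chr13:95301476-95301701 on the minus strand for ABCC4, chr10:99782390-99782639 on the plus strand for ABCC2, chr16:48232272-48232521 on the minus strand for ABCC11 and chr4:88159025-88159159 on the minus strand for ABCG2, all in GRCh38.p14.
ABCC4: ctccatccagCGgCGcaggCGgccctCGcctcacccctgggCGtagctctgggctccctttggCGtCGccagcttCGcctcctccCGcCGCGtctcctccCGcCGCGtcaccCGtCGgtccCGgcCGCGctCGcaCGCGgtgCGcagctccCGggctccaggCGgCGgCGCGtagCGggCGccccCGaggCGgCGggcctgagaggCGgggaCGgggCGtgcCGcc
ABCC2: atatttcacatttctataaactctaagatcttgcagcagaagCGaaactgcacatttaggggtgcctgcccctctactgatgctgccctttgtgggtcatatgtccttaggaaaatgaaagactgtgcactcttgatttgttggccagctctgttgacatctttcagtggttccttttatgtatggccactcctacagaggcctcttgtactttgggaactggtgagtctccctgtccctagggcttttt
ABCC11: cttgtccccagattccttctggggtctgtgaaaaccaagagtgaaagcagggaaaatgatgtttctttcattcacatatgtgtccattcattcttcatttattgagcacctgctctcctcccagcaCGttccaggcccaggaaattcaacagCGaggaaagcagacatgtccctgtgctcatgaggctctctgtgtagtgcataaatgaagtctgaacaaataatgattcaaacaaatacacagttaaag
ABCG2: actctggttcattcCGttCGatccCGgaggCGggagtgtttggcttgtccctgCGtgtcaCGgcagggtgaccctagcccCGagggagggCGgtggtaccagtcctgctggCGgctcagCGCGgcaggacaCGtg
The printed stretch of ABCC4 holds 37 CG dinucleotides in 226 bases and that of ABCG2 12 in 135 bases. Those of ABCC2 and ABCC11 hold 1 and 2 in 250 bases each.

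**Figure D1:**
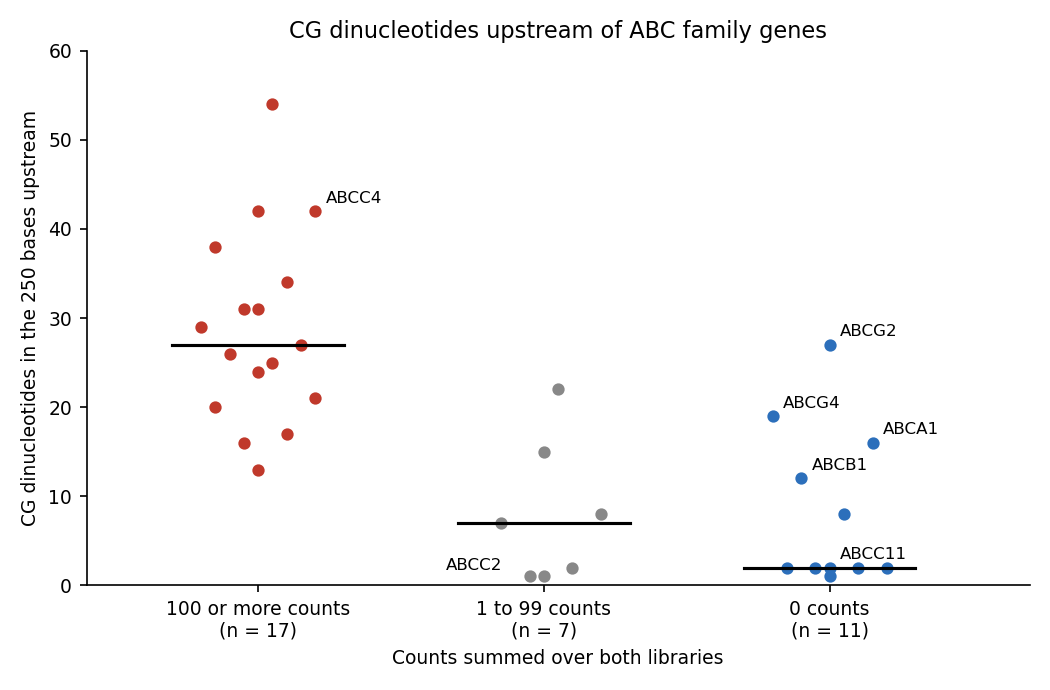
CG dinucleotides in the 250 bases upstream (vertical axis) of the 35 ABC family genes with a RefSeq window, grouped by their counts summed over both libraries (1 point a gene, bar at the median). Measured genes have 13 or more each, with a median of 27, while most genes at 0 counts have 2 or fewer and ABCG2 has 27.

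Of the efflux pumps known from drug resistance, ABCB1 and ABCG2 were not detected, while ABCC1, described below, was abundant. ABCB1, the P-glycoprotein pump that exports anthracyclines, had 0 counts in the doxorubicin library and 0 in the untreated library. ABCG2, the breast cancer resistance protein, likewise had 0 with doxorubicin and 0 without. ABCC3, a conjugate exporter of the basolateral membrane, also had 0 in both. A count of 0 allows up to 0.0584 CPM in the doxorubicin library and 0.0911 CPM in the untreated library. ABCC2, which exports conjugates into bile, had 3 counts with doxorubicin and 0 without, which is within that limit. ABCC6, a liver and kidney transporter linked to ectopic calcification, had 43 counts with doxorubicin and 25 without, a log2 ratio of 0.13 (-0.60 to 0.91). It shares 15.4% of its sampled 50-base stretches with its pseudogenes ABCC6P1 and ABCC6P2, so its counts are uncertain. No difference between the libraries was detectable at this depth for any of these 5 pumps.

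The other pumps were expressed, and 3 of them were higher with doxorubicin. The words higher and lower are kept for scaled ratios of at least 1.5-fold whose interval left out 1. ABCC1, which encodes MRP1, an exporter of glutathione conjugates and anthracyclines, had 18589 counts in the doxorubicin library and 7614 in the untreated library. After scaling that was 362 CPM with doxorubicin and 231 CPM without, 1.57-fold higher (1.52 to 1.61). ABCC4, which encodes MRP4, an exporter of cyclic nucleotides and nucleotide analogues, had 2196 counts with doxorubicin and 848 without, 1.66-fold higher (1.53 to 1.80). ABCC5, which encodes MRP5, an exporter of the same kinds of substrate, had 1543 with doxorubicin and 643 without, 1.54-fold higher (1.40 to 1.69). The interval of ABCC5 reached below the 1.5-fold limit, and those of ABCC1 and ABCC4 did not. ABCC10, which encodes MRP7, an exporter of taxanes and other lipophilic drugs, had 3467 with doxorubicin and 1939 without and was not past the rule, at a log2 ratio of 0.20 (0.12 to 0.28). So 3 of the 4 measured pumps were higher and all 4 belong to subfamily C.

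Among all 21 measured family genes 3 were higher, or 14.3%, where 7.26% of the 11244 measured genes in the table were. None was lower, where 9.57% of the measured genes were. With TMM sizes 43.1% of the genes past the rule were higher, and with total counts 56.0% were. The highest ratio outside the pumps lay just below the 1.5-fold limit, with ABCF1 at 1.49-fold. The median log2 ratio of the 21 was 0.22, with a range from -0.42 to 0.73, beside 0.007 over all measured genes. Of the 21 ratios 17 were above 0, or 81.0%, beside 50.7% of the measured genes. With 21 genes and 1 library per condition, nothing particular to the family is read from these counts.

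Transcript length moved with the ratio in these libraries, and ABC transcripts are long. Across the 11123 measured genes with a length, which are not independent, Spearman's rho between transcript length and ratio was 0.56. Over the 21 family genes it was 0.008. The median transcript length was 3857 bases in the family and 3250 over all measured genes, and the 4 measured pumps had 5888.5. All ratios were therefore also adjusted for GC content and for the lengths of transcript and coding sequence. With this adjustment, 0 family genes were higher and 0 were lower, where 4.14% and 3.53% of all genes were. The family median was then 0.03, with 11 of 21 ratios above 0. The adjusted log2 ratio was 0.45 (0.33 to 0.56) for ABCC4, 0.20 (0.06 to 0.33) for ABCC5 and 0.19 (0.15 to 0.23) for ABCC1, all below the 1.5-fold limit with intervals above 0. ABCC10 was then at -0.15 (-0.23 to -0.07), so its sign depends on the adjustment.

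**Figure D2:**
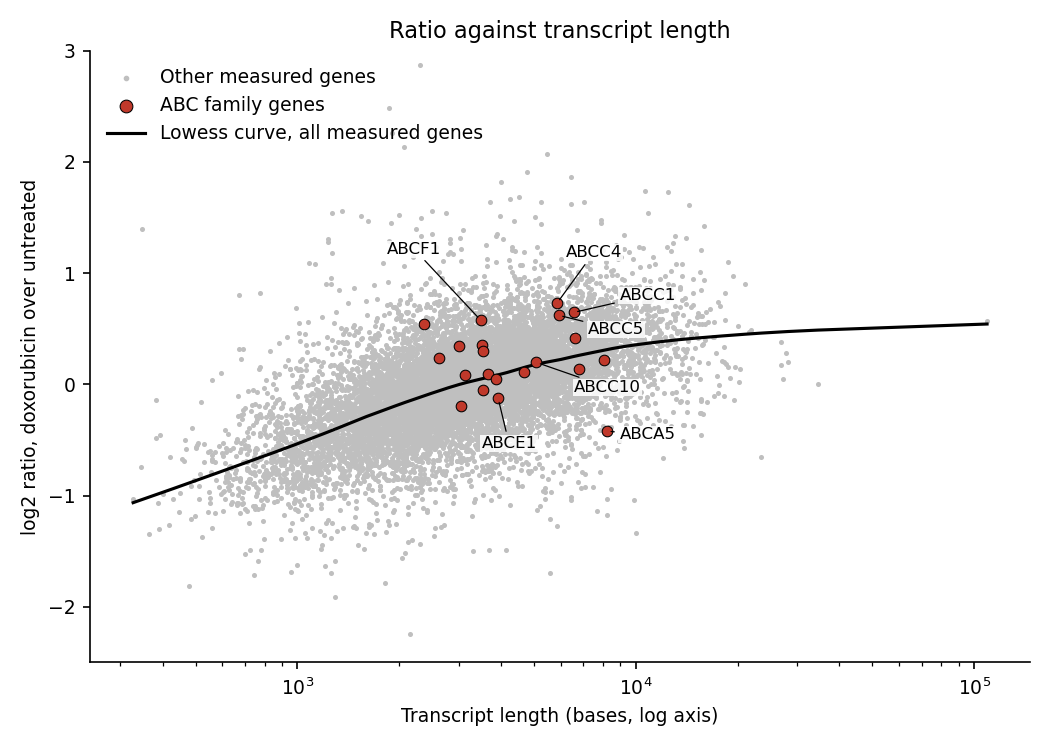
Log2 ratio of the doxorubicin library over the untreated library (vertical axis) against transcript length in bases (log axis), 1 point a measured gene, with ABC family genes in red and a lowess curve over all measured genes. The curve climbs with length, ABCC1, ABCC4 and ABCC5 lie above it among long transcripts, and ABCA5 lies below it.

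The balance between pumps can be read without any scaling between libraries. Per base of transcript, ABCC1 was 4.16 times ABCC10 in the doxorubicin library and 3.05 times in the untreated library, a shift of 1.37-fold (1.28 to 1.45). The shift was 1.45-fold (1.31 to 1.60) for ABCC4 against ABCC10 and 1.34-fold (1.2 to 1.5) for ABCC5 against ABCC10. Among the 3 pumps that were higher, the balance shifted by 0.94 (0.87 to 1.03) for ABCC1 against ABCC4, 1.02 (0.92 to 1.12) for ABCC1 against ABCC5 and 1.08 (0.95 to 1.22) for ABCC4 against ABCC5. Without adjustment, the intervals among ABCC1, ABCC4 and ABCC5 held 1 and those against ABCC10 did not. The same counts had already sorted these pumps by the rule, so the shifts restate that split and are no separate evidence for it. Transcript length was 6552 bases for ABCC1, 5921 for ABCC5, 5856 for ABCC4 and 5088 for ABCC10. GC content was less alike, at 55.0% for ABCC1, 50.8% for ABCC5, 42.6% for ABCC4 and 58.7% for ABCC10. After adjustment for GC content and both lengths, the interval of ABCC4 lay above that of ABCC1. It began at 0.334, barely above the end of that of ABCC5 at 0.332. These intervals leave out the error of the adjustment itself. The balance among these 3 pumps thus depends on the adjustment, and ABCC4 was hardly separated from ABCC5.

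The abundance of the pumps covered a wide range. In CPM per kilobase of the longest GENCODE transcript paired with a RefSeq mRNA, ABCC1 stood at 55.2 with doxorubicin and 35.3 without, ABCC10 at 13.3 with it and 11.6 without, ABCC4 at 7.30 with it and 4.40 without, and ABCC5 at 5.07 with it and 3.30 without. On the same scale ABCC6 stood at 0.146 with doxorubicin and 0.132 without. ABCC1 was above 78.5% of the measured genes in the untreated library and ABCC5 above 21.8%. The genes lie apart in the genome (GRCh38, while the counts were made on hg19): ABCC1 at chr16:15949577-16143074, ABCC4 at chr13:95019829-95301475, ABCC5 at chr3:183919934-184018015 and ABCC10 at chr6:43427366-43450430. ABCC6, near 0, is the neighbour of ABCC1 on chromosome 16, at positions 16148928 to 16223522.

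**Figure D3:**
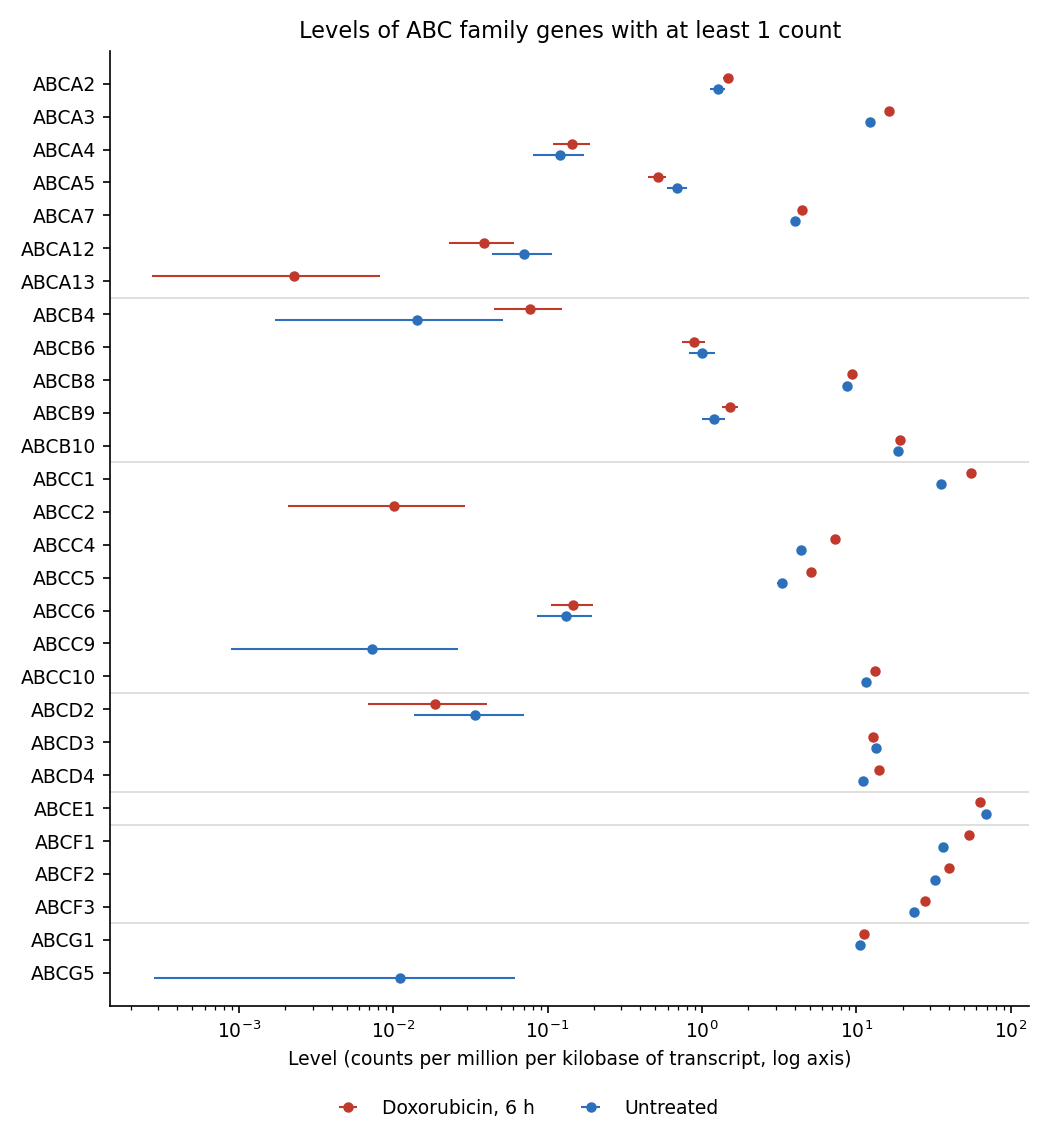
Level of 28 ABC family genes with at least 1 count, in CPM per kilobase of transcript (log axis), with doxorubicin (red) above untreated (blue), bars the exact 95% Poisson interval, and libraries at 0 counts left out. Measured genes span from ABCA5, at 0.516 with doxorubicin and 0.691 without, to ABCE1, at 63.7 with it and 69.5 without.

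Subfamily A, whose full-length proteins move lipids, had 4 measured genes of 12, and 0 were past the rule. Their median log2 ratio was 0.18, and -0.16 after adjustment. ABCA3, which loads phospholipid into lamellar bodies in the lung, was the most abundant, with 5555 counts in the doxorubicin library and 2669 in the untreated library and a log2 ratio of 0.42 (0.35 to 0.48). ABCA7, a phospholipid transporter, had 1555 with doxorubicin and 906 without, at 0.14 (0.02 to 0.26). ABCA2, a lysosomal transporter that is abundant in brain, had 612 with doxorubicin and 336 without, at 0.22 (0.03 to 0.42). ABCA5, also of the endolysosomal system, had 218 with doxorubicin and 187 without and the lowest ratio of the measured family genes, at -0.42 (-0.71 to -0.13). After adjustment ABCA3 was at 0.03, ABCA7 at -0.16, ABCA2 at -0.16 and ABCA5 at -0.55, so the signs of ABCA2 and ABCA7 depend on the adjustment.

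ABCA5 is a member of a cluster of 5 family genes on chromosome 17, at positions 68867292 to 69327244 of GRCh38. Its neighbours ABCA6, ABCA8, ABCA9 and ABCA10 were all at 0 counts in both libraries. ABCA1, the cholesterol exporter that LXR receptors induce, was at 0 in both as well. ABCA4, a retinoid transporter of photoreceptors, had 54 counts with doxorubicin and 29 without, ABCA12, of the skin lipid barrier, had 18 with doxorubicin and 21 without, and ABCA13 had 2 with doxorubicin and 0 without.

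Subfamily B had 5 measured genes of 9, and 0 were past the rule, with a median log2 ratio of 0.12 and an adjusted median of -0.10. Mitochondrial members are described first. ABCB10, of the inner membrane and needed for haem synthesis, had 3820 counts in the doxorubicin library and 2368 in the untreated library, a log2 ratio of 0.05 (-0.03 to 0.12). ABCB8, a subunit of a mitochondrial potassium channel, had 2266 with doxorubicin and 1341 without, at 0.12 (0.02 to 0.21). The adjusted ratios were -0.12 for ABCB10 and -0.10 for ABCB8, so the signs of both depend on the adjustment.

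ABCB9, a lysosomal peptide transporter, had 275 counts with doxorubicin and 138 without, a log2 ratio of 0.35 (0.05 to 0.66), and other genes overlap 24.4% of its exons. After adjustment ABCB9 was at 0.25 (-0.04 to 0.56), an interval that holds 0. ABCB6, a porphyrin transporter, had 138 with doxorubicin and 101 without, at -0.19 (-0.57 to 0.19), and 90.8% of its sampled stretches are shared with another annotated gene, so its counts are uncertain. ABCB4, the phosphatidylcholine exporter of the liver and the neighbour of ABCB1 on chromosome 7, had 17 counts with doxorubicin and 2 without, a ratio of 4.49 (1.29 to 48.6) that rests on too few counts to be called measured. ABCB5 and ABCB11, the bile salt pump, were at 0 in both libraries.

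Subfamily C also holds regulators of channels. Of the sulfonylurea receptors of potassium channels, ABCC8 had 0 counts in both libraries and ABCC9 had 0 with doxorubicin and 2 without. ABCC11, an exporter of conjugates and nucleotide analogues, and its neighbour on chromosome 16, ABCC12, were at 0 in both. The subfamily's median log2 ratio over its 4 measured genes, all of them pumps, was 0.63, and 0.19 after adjustment.

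Subfamily D imports fatty acids into peroxisomes, apart from ABCD4. It had 3 measured genes of 4, with 0 past the rule and a median log2 ratio of 0.10. ABCD3, the most abundant peroxisomal member, had 2346 counts in the doxorubicin library and 1555 in the untreated library, at -0.05 (-0.14 to 0.05). ABCD4, a lysosomal cobalamin exporter, had 2160 with doxorubicin and 1087 without, at 0.35 (0.24 to 0.46), and 0.20 (0.09 to 0.31) after adjustment. ABCD2 had 6 counts with doxorubicin and 7 without. The interval of ABCD3 held a ratio of 1, and that of ABCD4 did not.

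Subfamilies E and F, which serve ribosomes, held the most abundant family genes per length beside ABCC1. ABCE1, which splits ribosomes after termination, had 12838 counts in the doxorubicin library and 8980 in the untreated library, a log2 ratio of -0.13 (-0.16 to -0.09) and an adjusted one of -0.13. Other genes hold 25.2% of its sampled stretches. ABCF1, which binds initiation factor eIF2, had 9660 with doxorubicin and 4152 without, at 0.58 (0.52 to 0.63), the highest ratio short of the limit. ABCF2 had 7296 with doxorubicin and 3794 without, at 0.30 (0.25 to 0.36), with 53.6% of its sampled stretches shared. ABCF3 had 3759 with doxorubicin and 2042 without, at 0.24 (0.16 to 0.32). The adjusted ratios were 0.34 for ABCF1, 0.09 for ABCF2 and 0.15 for ABCF3. With total counts in place of TMM sizes, ABCF1 passed the rule, at 0.65.

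In subfamily G only ABCG1 of 5 genes was measured. ABCG1, which exports cholesterol to lipoprotein particles and is a partner of ABCA1 in that task, had 1798 counts in the doxorubicin library and 1085 in the untreated library. Its log2 ratio was 0.09 (-0.02 to 0.20), and -0.09 after adjustment. ABCG4 and ABCG8 were at 0 in both, and ABCG5, the partner of ABCG8 in sterol excretion, had 0 counts with doxorubicin and 1 without.

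**Figure D4:**
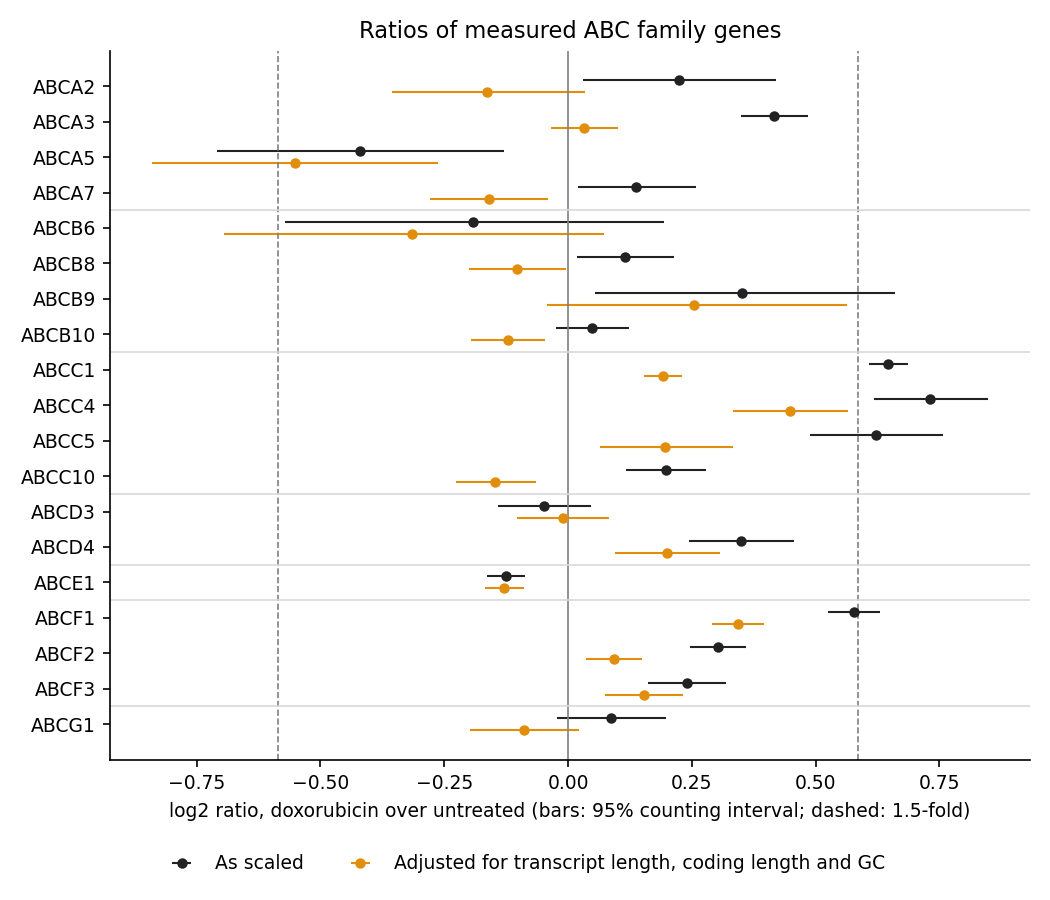
Log2 ratio of the doxorubicin library over the untreated library (horizontal axis) for 19 measured ABC family genes, by subfamily, as scaled (black) and adjusted for GC content and both lengths (orange), with 95% counting intervals and dashed lines at 1.5-fold. Only ABCC1, ABCC4 and ABCC5 pass the right-hand line before adjustment, and 0 of the genes drawn pass either line after it.

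Per base of transcript the order was led by ABCE1 in both libraries. With doxorubicin ABCC1 was second at 55.2, not separated from ABCF1 at 54.0. Without doxorubicin ABCF1 at 36.2 and ABCC1 at 35.3 were likewise not separated. ABCF2 and ABCF3 followed in both. ABCC4 was rank 14 of 21 in both libraries. At the low end ABCA5 was last in both.

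Of the family genes with other symbols, TAP2 was higher with doxorubicin, at 17528 counts against 7247 without, and its log2 ratio was 0.63 (0.59 to 0.67). Another annotated gene covers 32.3% of its exon bases. TAP1, its partner in carrying peptides to MHC class I, had 30839 with doxorubicin and 14716 without, at 0.43 (0.40 to 0.45). Of the sampled stretches of TAP1, 14.5% are found in other genes. Adjusted, TAP2 was at 0.30 and TAP1 at 0.28. CFTR had 8 counts with doxorubicin and 2 without.

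Over all measured genes 7.26% were higher and 9.57% were lower. The lists of related genes that follow are too small to be set apart from these shares. One list holds genes taken to move, bind or conjugate doxorubicin by other means. Of 14 listed, 6 were measured, 1 was higher and 0 were lower, with a median log2 ratio of 0.14. SLC29A3, a lysosomal nucleoside transporter, was higher at 279 counts with doxorubicin and 106 without, at 0.75 (0.43 to 1.09) and 0.76 after adjustment. Whether SLC29A3 carries doxorubicin was not tested. GSTP1, which conjugates drugs to glutathione for export by pumps such as MRP1, had 0 counts in both libraries, as did MGST1 and the uptake carrier SLC22A16. GSTO1, another glutathione transferase, was expressed, with 2798 counts with doxorubicin and 2579 without, at -0.52 (-0.60 to -0.45) and -0.12 after adjustment. LAPTM4B had 2321 with doxorubicin and 1024 without, at 0.54 (0.43 to 0.65) and 0.54 after adjustment. Neither was past the rule. Of 9 genes for glutathione synthesis and supply 1 was higher and 0 were lower, with a median of 0.05. It was SLC7A11, the cystine carrier, with 1312 counts with doxorubicin and 515 without, at 0.71 (0.56 to 0.86), and 0.62 after adjustment.

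Of 15 known regulators of pump genes 12 were measured, 1 was higher and 1 was lower, with a median log2 ratio of 0.21. YBX1, a Y-box factor linked to ABCB1 transcription, was lower, with 57286 counts in the doxorubicin library and 62417 in the untreated library, at -0.76 (-0.78 to -0.75), and -0.61 after adjustment. It shares 38.98% of its sampled stretches with pseudogenes and other loci, so its counts are uncertain. EP300, an acetyltransferase, was higher, with 5265 counts with doxorubicin and 1838 without, at 0.88 (0.80 to 0.95), but at 0.30 after adjustment. NR1I2, the xenobiotic receptor PXR, was at 0 in both libraries. The 4 measured membrane linkers had 0 past the rule, with EZR, which encodes ezrin, at -0.002 and MSN, which encodes moesin, at 0.14.

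Among 12 genes of LXR signalling and cholesterol efflux 11 were measured, 1 was higher and 0 were lower, with a median of 0.26. NR1H3, which encodes LXR-alpha, was higher, with 616 counts in the doxorubicin library and 243 in the untreated library, at 0.70 (0.48 to 0.92), and 0.78 after adjustment. NR1H2, which encodes LXR-beta, went the other way, with 3287 counts with doxorubicin and 2724 without, at -0.37 (-0.44 to -0.30). Of the LXR target genes in the family, ABCA1 was at 0 counts and ABCG1 at 0.09. Within the list SREBF1 was at 0.47, LPCAT3 at 0.40 and MYLIP at -0.02, none past the rule. Another gene overlaps 65.6% of the exons of LPCAT3. Whether NR1H3 bears on these ratios was not tested.

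The lists of partners of the organelle and ribosome proteins were likewise too small to be set apart from all measured genes, of which 7.26% were higher and 9.57% lower. None of 9 measured peroxisomal genes passed the rule, with a median of -0.08, and SCP2 and PEX19, those with the most counts, were at -0.42 and 0.14. Another gene overlaps 16.3% of the exons of PEX19. Likewise 0 of 10 iron-sulfur and haem genes passed, with a median of -0.09, and ALAS1 and GLRX5 were at 0.33 and -0.33. Of the sampled stretches of GLRX5, 18.03% are shared. Of the cobalamin genes 0 of 5 passed, with a median of 0.01, and CD320 and MUT were at 0.16 and 0.12, and at 0.63 and 0.09 after adjustment, where CD320 passed the limit. Of 12 ribosome partners 1 was higher and 0 were lower, with a median of 0.16. It was GCN1, a partner of the kinase that senses uncharged tRNA, with 13441 counts with doxorubicin and 4802 without, at 0.84 (0.80 to 0.89) and 0.28 after adjustment. Of 10 peptide loading genes 1 was higher and 0 were lower, with a median of 0.24, and that was the trimming peptidase ERAP1, with 15586 counts with doxorubicin and 6529 without, at 0.61 (0.57 to 0.66), and 0.44 after adjustment. Of the potassium channel genes that pair with ABCC8 and ABCC9, KCNJ8 was at 0 and KCNJ11 at 0.35 (-0.19 to 0.93).

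**Figure D5:**
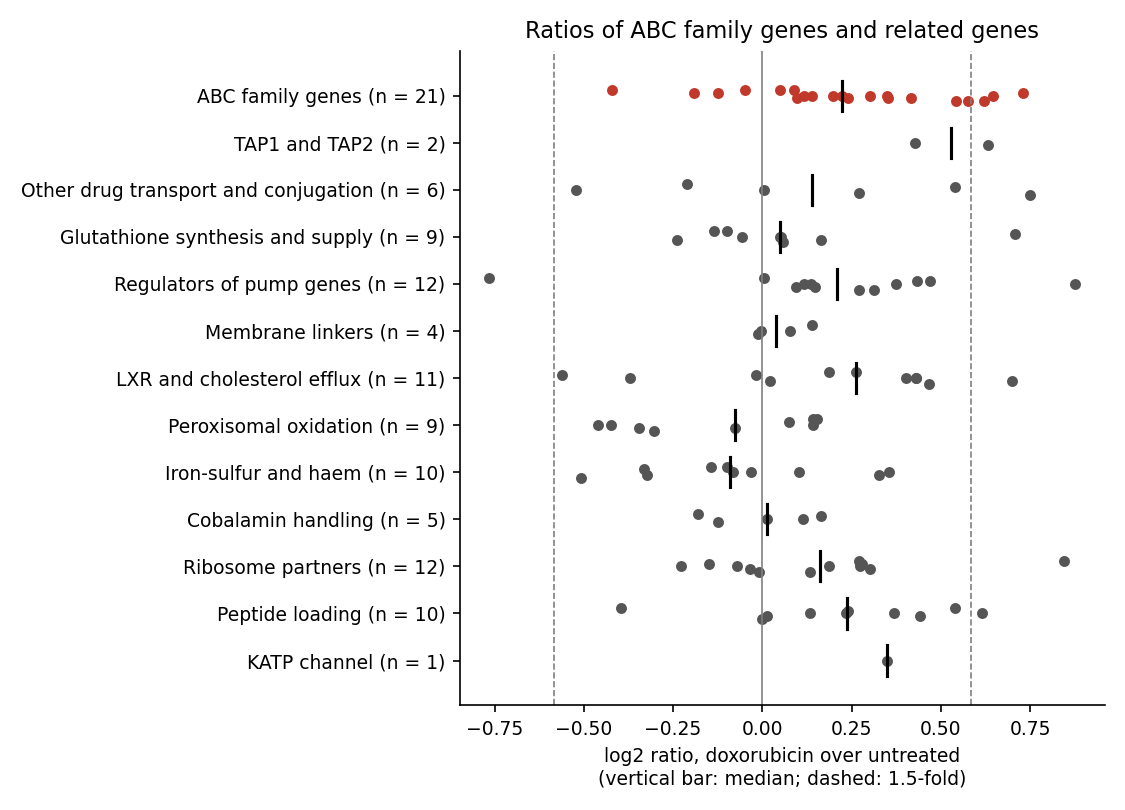
Log2 ratios of the doxorubicin library over the untreated library (horizontal axis) for measured ABC family genes (red) and the measured genes of each related list (grey), 1 point a gene, with the median as a bar and dashed lines at 1.5-fold. The family median is 0.22 and the list medians lie between -0.09 for iron-sulfur and haem genes and 0.53 for TAP1 and TAP2.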

How the data were processed

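Poly(A) RNA of H9 cells was sequenced from 1 library with doxorubicin and 1 without. The deposited values are raw read counts per gene symbol, neither scaled nor length-corrected. The submitters' processing notes name HISAT2, featureCounts and hg19, while versions, annotation, strand setting and multi-mapped reads were not stated in the labels or notes. Counts were scaled by TMM sizes (edgeR 4.0.16, R 4.3.3), 0.5 was added for log2 ratios, and exact Clopper-Pearson 95% intervals were computed. Intervals and the floor of 3 counts cover counting error only. Levels per length, exon overlap and shared 50-base stretches (every 25 bases, marked from 10%) used GENCODE release 29 on GRCh38, so their coordinates are not those of the counts. Lengths matched 98.9% of the 11244 genes with at least 100 counts. Ratios were adjusted by a lowess curve of span 0.3 or by regression splines of 4 degrees of freedom. Shifts between pumps have exact conditional odds-ratio intervals. Alternatives were DESeq2 1.42.0 size factors, total counts, other minimums, limits, intervals and added counts. Named genes were the listed pumps, the measured family genes, of which some are not reported here by name, and from each related list those past the rule or the 2 with the most counts; others were named after their values were seen. The members and lists were chosen with earlier results of these data known. The scripts were tested on simulated data.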

Additional observations from a re-analysis of the deposited data

How the results depend on the processing

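No paired analysis was possible because each condition has 1 library, and no replicate could be left out for the same reason. DESeq2 size factors, a wider counting interval and an added count of 5 left the call of each of the 21 measured family genes as it was. The count of family genes higher was 3, became 5 with total counts, 8 at a lower limit of 0.32 on the log2 scale and 0 at 2-fold, and was 1 after adjustment for transcript length and 0 after adjustment for length, coding length and GC content. The count lower was 0, and 1 at the lower limit and after length adjustment (ABCA5). Over all genes 816 higher and 1076 lower became 1084 and 852 with total counts, 2294 and 2416 at the lower limit and 128 and 175 at 2-fold. They were 540 and 513 after length adjustment and 461 and 393 after the fuller one. The family median of 0.22 was 0.075 and 0.033 after these 2 adjustments. ABCC1 at 0.65, ABCC4 at 0.73 and ABCC5 at 0.62 were below the 2-fold limit, and were at 0.40, 0.51 and 0.40 after length adjustment and at 0.19, 0.45 and 0.20 after the fuller one. ABCC10 was at 0.016 and -0.147. Total-count scaling gave 56.0% of all calls as higher, and TMM 43.1%. The number of libraries limits every comparison, since the variation between cultures was not measured.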
